A study of Homo sapiens with 6 samples.

Results

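The lncRNAs NEAT1, MALAT1, PVT1, GAS5, SNHG1, SNHG12, TUG1, OIP5-AS1, H19 and UCA1 were examined in A549 cells, a human lung adenocarcinoma line, after knockdown of BAP18. They are 10 of the 35474 genes listed in the count table and were taken by symbol, with earlier results of these data known. The filter on low counts kept 20776 genes for testing, among them 3781 lncRNA genes of GENCODE 29 and 9 of the 10 lncRNAs. BAP18 (gene C17orf49) is a chromatin-associated protein. The siBAP18 group was transfected with siRNA against BAP18 and the siCtrl group with a nonspecific siRNA, and RNA was taken at 48 h from 3 biological replicates of each. All 6 libraries came from the same cell line and were made from poly(A)-selected RNA. Which of the study's BAP18 siRNAs was used for these libraries is not given in the sources used here, so effects of a single siRNA sequence and of BAP18 loss cannot be told apart.

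Long noncoding RNAs act as RNA and are not translated into a functional protein. Some build or occupy nuclear bodies, some carry small nucleolar RNAs (snoRNAs) in their introns and are cut down quickly once spliced, and others bind proteins, mRNAs or microRNAs in the cytoplasm. Many of them are studied in lung adenocarcinoma because their levels differ between tumors.

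C17orf49 had 743, 751 and 705 counts in siCtrl against 120, 137 and 108 counts in siBAP18. Its log2 fold change was −2.65 with an SE of 0.11, so the labels hold for the targeted gene (adjusted p = 7.31e-16 by the edgeR quasi-likelihood test, adjusted after Benjamini and Hochberg over all genes tested, as for every adjusted p given here). Library totals ran from 42094524 to 56548620 counts. Mitochondrial genes took 6.87% to 7.43% of the counts in siCtrl and 5.28% to 6.14% in siBAP18, and the part of this difference in the results was not tested. The 8 markers of A549 cells reported here were present, and 7 of them (KRT8, KRT18, CDH1, ALDH1A1, AKR1B10, AKR1C1 and NQO1) were lower in every siBAP18 library than in any siCtrl library. The epithelial cadherin CDH1 was at 10.1 to 10.7 RPKM in siCtrl and 4.02 to 4.25 RPKM in siBAP18, and the aldehyde dehydrogenase ALDH1A1 at 3246 to 3262 and 1624 to 1986 RPKM. The reductase AKR1B10 was at 1397 to 1427 RPKM in siCtrl and 706 to 744 RPKM in siBAP18, and AKR1C1 had 51766 to 62068 counts in siCtrl and 26574 to 34972 counts in siBAP18. The keratin KRT8 was at 1880 to 2003 and 1384 to 1617 RPKM, while KRT19 was not lower. Among markers of other cells, the endothelial PECAM1 was at 0.0756 to 0.108 and 0.0228 to 0.0477 RPKM, the fibroblast collagen COL1A1 at 1.16 to 1.31 and 0.844 to 1.02 RPKM, and the type II cell marker SFTPC at 0 to 0.0388 RPKM over all libraries, and the leukocyte marker PTPRC was not among the genes listed here. The part of these differences in the results was not tested. RPKM is the authors' count scaled to the listed gene length in kilobases and to the library total.

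Knockdown moved the 9 lncRNAs tested in both directions. PVT1, SNHG12, GAS5 and SNHG1 rose, and NEAT1, OIP5-AS1 and MALAT1 fell. Adjusted p was under 0.05 for 7 of the 9, beside 49.6% of all genes tested and 35.6% of the lncRNA genes tested. With an absolute log2 fold change over 1 in addition, 2 of the 9 were called, PVT1 higher and NEAT1 lower, beside 8.46% of all genes and 11.4% of lncRNA genes. Rises took 4 of the 9 (24.5% of all genes) and falls 3 of the 9 (25.1% of all genes). Values of the 2 groups did not overlap for 6 of the 9, beside 56.6% of all genes. The median log2 fold change was −0.098 over the 9 lncRNAs, 0.0010 over all genes and 0.032 over lncRNA genes. These are measurements on whole cultures, in which a change in every cell and a change in the share of cells that hold an RNA cannot be told apart.

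**Figure D1:**
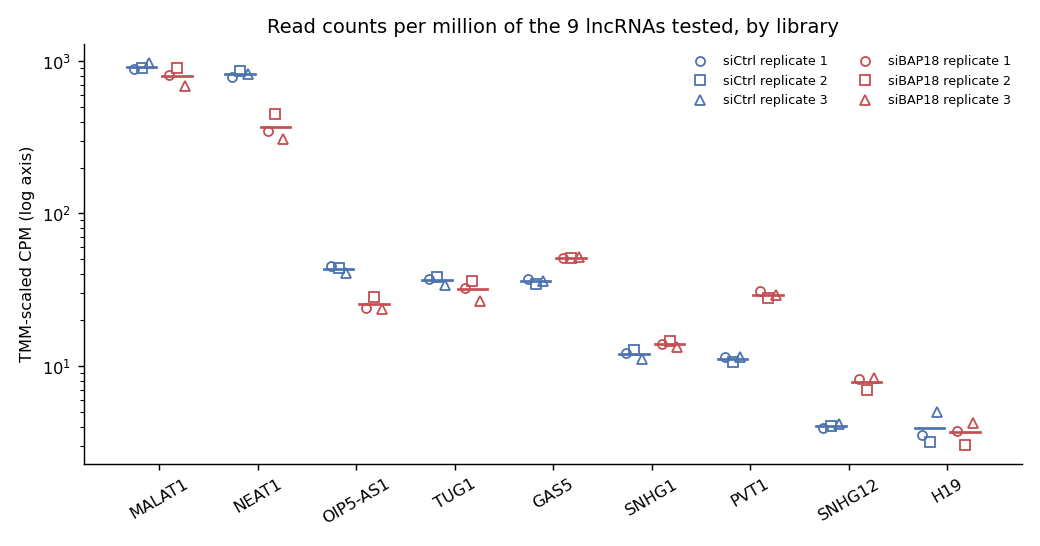
Each point is 1 library and each bar the mean of 3, in CPM (counts scaled to library size by the trimmed mean of M values, TMM) on a log axis, for siCtrl (blue) and siBAP18 (red). PVT1 and SNHG12 sit higher and NEAT1 and OIP5-AS1 lower in all 3 siBAP18 libraries, while the points of MALAT1, TUG1 and H19 overlap between groups.

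NEAT1 is the scaffold of paraspeckles, nuclear bodies that hold RNA-binding proteins. It is made in a short form with a poly(A) tail and in a long form whose end is cut by RNase P and closed by a triple helix of U-rich and A-rich RNA. MALAT1, its neighbor on the chromosome, sits in nuclear speckles beside splicing factors and has the same kind of end. Because the libraries were selected on poly(A), the ends of these RNAs bear on what was counted. The 120 bases that close the long NEAT1 form NEAT1-202 (chr11:65445421-65445540, plus strand) and the 120 bases of MALAT1-202 up to its A-rich tract (chr11:65505997-65506116, plus strand) are given from GENCODE 29 on GRCh38, with the runs that both share in capitals.
NEAT1 end: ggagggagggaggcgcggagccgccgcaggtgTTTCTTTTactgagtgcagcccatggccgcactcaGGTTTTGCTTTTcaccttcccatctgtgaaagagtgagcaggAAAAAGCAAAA
MALAT1 end: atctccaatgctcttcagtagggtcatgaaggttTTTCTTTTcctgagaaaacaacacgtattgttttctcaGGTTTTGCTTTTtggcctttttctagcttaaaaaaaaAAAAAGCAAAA
Both windows held the runs of 8, 12 and 11 bases once. The short NEAT1 form ends near an AATAAA hexamer at base 3706 of the 22743 bases of NEAT1-202, shown in capitals within chr11:65426443-65426542.
NEAT1 hexamer: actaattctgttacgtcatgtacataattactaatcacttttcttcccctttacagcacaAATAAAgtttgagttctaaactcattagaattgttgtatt
Apart from NEAT1-202, the 7 other NEAT1 transcripts of GENCODE 29 end no more than 10 bases past the start of this hexamer.

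NEAT1 (chr11:65422774-65445540, plus strand, a single listed block of 22767 bases) had 782, 860 and 819 CPM in siCtrl replicates 1, 2 and 3. The siBAP18 replicates 1, 2 and 3 had 349, 448 and 307 CPM. Each siBAP18 value lay far under the lowest siCtrl value, and siBAP18 replicate 2 was the highest of its group. The level fell by 1.15 on the log2 scale with an SE of 0.094, which leaves 0.449 of the siCtrl level (adjusted p = 1.77e-10, edgeR). NEAT1 took 0.0775% to 0.0869% of all counts in siCtrl and 0.0296% to 0.0463% in siBAP18.

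The table also lists 3 short entries inside NEAT1 under the names NEAT1_1, NEAT1_2 and NEAT1_3. By their coordinates they are segments of 120, 105 and 159 bases within the first 1345 bases of the gene, and not the isoforms that share such names. All of them precede the hexamer shown above. NEAT1_3 had 67.1, 77.1 and 67.5 CPM in siCtrl and 29.1, 36.6 and 24.2 CPM in siBAP18. The segment thus separated the groups as the whole gene did, with siBAP18 replicate 2 again the highest of the knockdown libraries. Log2 fold changes were −1.29 ± 0.10 for NEAT1_1, −1.32 ± 0.14 for NEAT1_2 and −1.23 ± 0.099 for NEAT1_3 (SE; adjusted p from 1.48e-08 to 1.37e-10 by edgeR). Counts per base in the 3 segments together were 8.22 to 8.67 times the gene's mean in siCtrl and 7.51 to 8.09 times in siBAP18. The segments are about as long as a 150-base read, and a read that covers a segment only in part may be counted for it. Counts per base can thus be raised in any short entry. The segments listed inside PVT1 (6.04 to 7.31 times) and TUG1 (2.58 to 2.855 times) were above the means of their genes as well. Whether reads were denser in this early part of NEAT1 was not tested. Whether a read in a segment was counted for both entries is not given in the sources used here, so gene and segment values may share reads. The segment with the most counts per base, NEAT1_3 (chr11:65423960-65424118, plus strand), reads as follows.
NEAT1_3 segment: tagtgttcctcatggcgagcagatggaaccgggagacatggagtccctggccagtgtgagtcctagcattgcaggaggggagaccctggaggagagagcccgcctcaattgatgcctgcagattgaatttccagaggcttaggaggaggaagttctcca

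Genes on both sides of NEAT1 were lower as well. FRMD8, which helps keep iRhom proteins at the cell surface and ends 9249 bases before NEAT1, had 19.3, 21.9 and 18.8 CPM in siCtrl and 10.5, 9.81 and 10.5 CPM in siBAP18. It fell by 0.96 on the log2 scale with an SE of 0.085 (adjusted p = 8.90e-10, edgeR). CMB9-22P13.1, listed 9718 bases after NEAT1 and 31042 bases before MALAT1, fell by 0.92 with an SE of 0.13. Among all genes 25.1% fell, and a part of the position on the chromosome was not tested. Distances run between the listed ends of the genes.

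MALAT1 (chr11:65497762-65506516, plus strand, 8755 bases) had 889, 898 and 968 CPM in siCtrl and 809, 903 and 682 CPM in siBAP18. The groups overlapped, since siBAP18 replicate 2 lay above siCtrl replicates 1 and 2. Its log2 fold change was −0.20 with an SE of 0.081 (adjusted p = 0.0397, edgeR). The adjusted p was over 0.05 in 7 of 11 other settings, and it lay between 0.0610 and 0.182 without siCtrl replicate 1, 2 or 3 or siBAP18 replicate 1 or 3. It was 3.30e-04 without siBAP18 replicate 2, the library with the highest MALAT1 of its group. The ratio of NEAT1 to MALAT1 counts was 0.845 to 0.957 in siCtrl and 0.431 to 0.497 in siBAP18, so within each library NEAT1 was lower relative to MALAT1 after knockdown.

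AP000769.1, an entry of 1589 bases on the opposite strand inside MALAT1, had a log2 fold change of −0.23 with an SE of 0.097 (adjusted p = 0.0520, edgeR). The labels describe libraries that keep the strand, but the use of strand in counting is not given in the sources used here, and its reads may be those of MALAT1. The small cytoplasmic RNA cut from the MALAT1 end is listed as mascRNA-menRNA, together with its NEAT1 counterpart that begins at the base after the last NEAT1 base. It had 62 to 87 counts in siCtrl and 28 to 67 in siBAP18, with overlapping groups and an adjusted p of 0.0617 by edgeR.

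PVT1 lies downstream of MYC, is transcribed from its own promoter and is often gained together with MYC in tumors. It is listed at chr8:127794533-128101253 on the plus strand, with exons that add up to 5493 bases over a span of 306721 bases. PVT1 had 11.5, 10.6 and 11.5 CPM in siCtrl and 31.1, 27.7 and 29.1 CPM in siBAP18. Every siBAP18 library had more than 2 times the level of every siCtrl library. The rise was 2.62-fold, or 1.39 on the log2 scale with an SE of 0.079 (adjusted p = 2.77e-13, edgeR).

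Entries inside PVT1 gave the same direction. PVT1_1 covers bases 9 to 202 of the span and had 140, 140 and 127 counts in siCtrl and 449, 433 and 342 counts in siBAP18. PVT1_3 lies 96094 bases into the span and had 54, 39 and 47 counts in siCtrl and 184, 165 and 112 counts in siBAP18. Their log2 fold changes were 1.53 ± 0.12 and 1.65 ± 0.18 (SE), so the early part of PVT1 and a downstream exon both rose. The 2 segments equalled 31.8% to 36.4% of the PVT1 counts in siCtrl and 36.9% to 38.4% in siBAP18. RP11-55J15.2 and RNU4-25P overlap each other and a later part of PVT1 on the opposite strand. They rose by 0.72 and 0.70 on the log2 scale with an SE of 0.22 and 0.25. The use of strand in counting is not given in the sources used here, so their reads may be those of PVT1.

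MYC, the transcription factor gene 53099 bases before PVT1, had 56.4, 57.2 and 55.6 CPM in siCtrl and 58.9, 55.8 and 51.3 CPM in siBAP18. The groups overlapped and the log2 fold change was −0.027 with an SE of 0.069 (adjusted p = 0.771, edgeR). Thus the level of PVT1 rose where no change of MYC was detected. The nearest gene tested on the other side, RP11-473O4.5, lay 1731048 bases away and fell by 1.22 with an SE of 0.26.

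**Figure D2:**
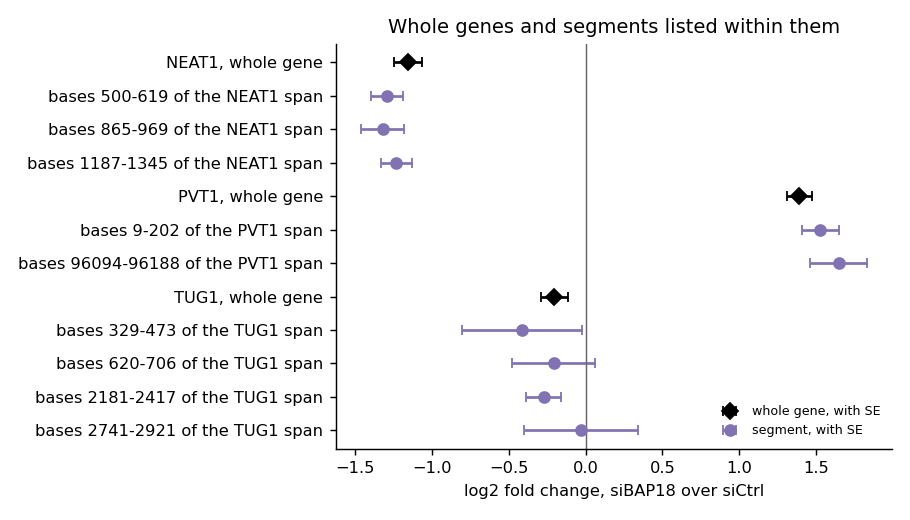
Log2 fold changes, siBAP18 over siCtrl, with SE (bars) for whole genes (diamonds) and for the segments listed within them (circles). Segments are in order from the start of their gene and are not spaced to scale. The 3 NEAT1 segments lie at −1.32 to −1.23 and the 2 PVT1 segments at 1.53 and 1.65, on the side of their whole genes, and the 4 TUG1 segments lie between −0.41 and −0.029.

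GAS5, SNHG1 and SNHG12 are host genes of snoRNAs, the guides for chemical modification of ribosomal RNA, which are cut from their introns. The spliced host RNA is commonly removed by nonsense-mediated decay, which depends on translation, and GAS5 is known for building up in cells whose growth is arrested. Hosts of this class often start with a C and a run of pyrimidines, the 5′ terminal oligopyrimidine (TOP) tract, through which their translation follows growth signals. The first 40 bases of 1 GENCODE 29 transcript of each are given with such a tract in capitals, defined as a C followed by at least 5 C or T within 5 bases of the start. GAS5-210 lies at chr1:173867950-173867989, SNHG12-202 at chr1:28581834-28581873 and SNHG1-209 at chr11:62855846-62855885, all on the minus strand of GRCh38.
GAS5-210: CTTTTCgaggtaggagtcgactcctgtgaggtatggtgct
SNHG12-202: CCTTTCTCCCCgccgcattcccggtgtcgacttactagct
SNHG1-209: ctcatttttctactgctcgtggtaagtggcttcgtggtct
The tract was found in 7 of 29 GAS5, 6 of 17 SNHG12 and 0 of 25 SNHG1 transcripts, beside 6.05% of all transcripts. It was also found in 21 of 36 UCA1 transcripts, so it does not set the host genes apart.

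SNHG12 (chr1:28578538-28582983, minus strand) had 208, 189 and 193 counts in siCtrl and 444, 404 and 337 counts in siBAP18, or 3.91, 4.06 and 4.13 CPM against 8.16, 6.92 and 8.31 CPM. The groups did not overlap, and siBAP18 replicate 2 was the lowest of its group. The rise was 1.93-fold, or 0.95 on the log2 scale with an SE of 0.11 (adjusted p = 1.67e-07, edgeR). It passed a log2 fold change of 1 without siBAP18 replicate 2, at 1.03. TRNAU1AP, which overlaps the 3′ end of SNHG12 on the opposite strand, and TAF12, 6340 bases away, were at 0.17 and 0.18 and did not pass.

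GAS5 (chr1:173863900-173868882, minus strand) had 37.2, 34.4 and 36.3 CPM in siCtrl and 50.7, 51.0 and 51.9 CPM in siBAP18. The siBAP18 libraries lay close together and all above siCtrl. GAS5 rose 1.42-fold, or 0.51 on the log2 scale with an SE of 0.068 (adjusted p = 7.23e-07, edgeR). RC3H1, an RNA-decay factor listed 62332 bases from GAS5, was at 0.053 on the log2 scale with an SE of 0.12 and did not pass. GAS5-AS1, which overlaps GAS5 on the opposite strand, had 5 to 15 counts a library and was not tested.

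SNHG1 (chr11:62851988-62855914, minus strand) had 12.2, 12.6 and 11.1 CPM in siCtrl and 14.0, 14.7 and 13.3 CPM in siBAP18. The groups came close without overlap. The rise was 1.17-fold, or 0.22 on the log2 scale with an SE of 0.086 (adjusted p = 0.0329, edgeR). Without any of 4 of the 6 libraries, siCtrl replicates 1 and 3 and siBAP18 replicates 1 and 2, the adjusted p lay between 0.0809 and 0.181. SLC3A2, the amino acid transporter chain that starts 188 bases from SNHG1 on the other strand, had 593, 590 and 607 CPM in siCtrl and 801, 786 and 934 CPM in siBAP18. It rose by 0.49 with an SE of 0.072, so both genes at this pair of starts rose, SLC3A2 by the larger log2 difference. Among all genes 24.5% rose.

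The snoRNAs themselves were barely sampled. Of 22 snoRNAs hosted by GAS5, SNHG1 and SNHG12, 11 were listed, 5 passed the filter on low counts, none rose and 1 fell. The one that fell, SNORD26 within SNHG1, had 36, 18 and 48 counts in siCtrl and 21, 26 and 7 counts in siBAP18, with overlapping groups. SNORA61 within SNHG12 had 52 to 66 counts in siCtrl and 33 to 87 counts in siBAP18, with no separation of the groups. SNORD22, SNORD25 and SNORD30, the last listed at several places, did not pass at adjusted p values from 0.273 to 0.962 by edgeR. RNAs of this size are poorly held by poly(A)-selected libraries, so these counts may be reads of the hosts.

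A list of 31 other hosts of snoRNAs or microRNAs had 24 tested genes, of which 10 rose, 3 fell and 11 did not pass, with a median log2 fold change of 0.13. Among all genes 24.5% rose and 25.1% fell, with a median of 0.0010. ZFAS1, a snoRNA host with a TOP start, had 119, 110 and 120 CPM in siCtrl and 225, 224 and 226 CPM in siBAP18. Its rise of 0.95 with an SE of 0.066 was of the size seen for SNHG12 (adjusted p = 1.00e-11, edgeR). SNHG17, SNHG15 and MIR31HG, the host of miR-31, rose by 0.47 ± 0.079, 0.48 ± 0.089 and 0.68 ± 0.12 (SE). The falls were SNHG4, SNHG14 and DLEU2.

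**Figure D3:**
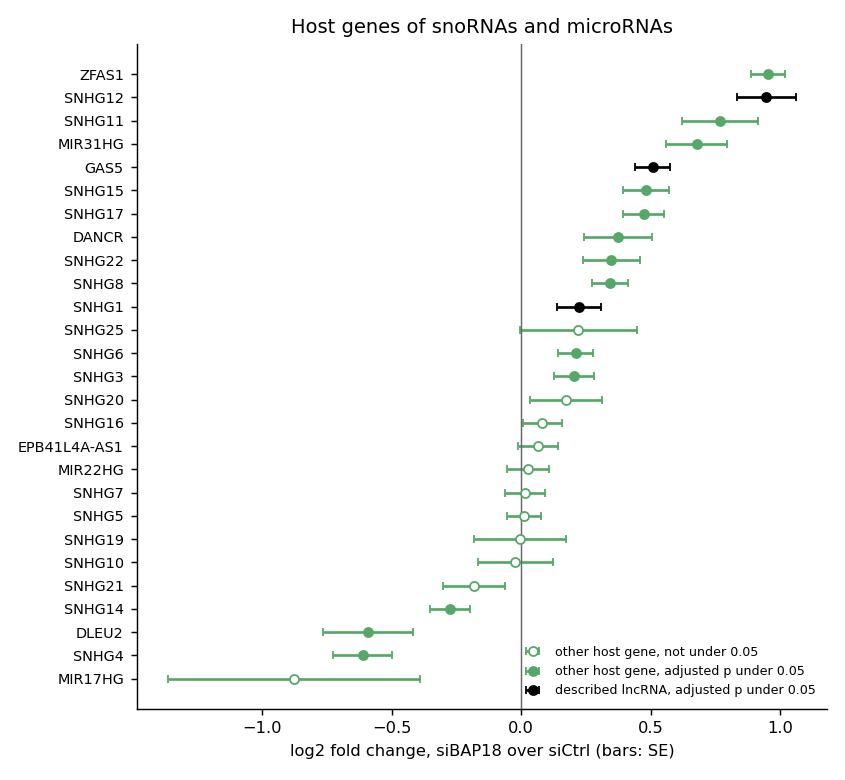
Log2 fold changes, siBAP18 over siCtrl, with SE (bars) for GAS5, SNHG1 and SNHG12 (black) and the 24 other host genes tested (green), filled where adjusted p was under 0.05. SNHG12 lies next to ZFAS1 at the top, and the spread reaches from below −0.5 to 0.95.

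Factors of nonsense-mediated decay moved both ways. Of 21 listed and tested, 8 rose and 6 fell, with a median of 0.14, beside 24.5% and 25.1% of all genes. The falls were near the share of all genes. The helicase UPF1 was at 0.12 (adjusted p = 0.165, edgeR). UPF3B and UPF2, which activate UPF1, fell by 0.58 ± 0.069 and 0.40 ± 0.067 (SE), while SMG9, a regulator of the kinase SMG1, and CASC3, an exon junction protein, rose by 0.43 ± 0.078 and 0.38 ± 0.071 (SE). Of 25 translation genes with TOP starts other than ribosomal protein genes, 5 rose and 13 fell, with a median of −0.16, beside the same 24.5% and 25.1% of all genes. EIF3E and EIF2S3, subunits of initiation factors, fell by 0.53 ± 0.068 and 0.49 ± 0.067 (SE). EIF3G, another initiation factor subunit, and VIM, an intermediate filament gene with a TOP start, rose by 0.45 ± 0.076 and 0.43 ± 0.068 (SE).

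RNA levels of the genes for proteins that share nuclear bodies with NEAT1 and MALAT1 were read from 2 further lists. Protein was not measured in these libraries. Of 27 paraspeckle proteins, 6 rose and 11 fell, with a median of −0.14, beside 24.5% and 25.1% of all genes, so that the rises were near the share of all genes. SFPQ and NONO, on which paraspeckles depend, were at 0.045 and −0.031 on the log2 scale and did not pass, and PSPC1, their partner, fell by 0.41 with an SE of 0.069. FAM98A and HNRNPR fell by 1.10 ± 0.078 and 0.60 ± 0.069 (SE), and SMARCA4, the ATPase of SWI/SNF complexes, and HNRNPH3 rose by 0.99 ± 0.069 and 0.69 ± 0.068 (SE). Of 25 genes of nuclear speckles and of MALAT1 processing, 11 rose and 2 fell, with a median of 0.17, beside the same shares of all genes. The splicing factors PRPF6 and RNPS1 rose by 0.71 ± 0.072 and 0.59 ± 0.067 (SE), and RPP38 and POP4, subunits of RNase P, by 0.61 ± 0.080 and 0.35 ± 0.064 (SE). The largest adjusted p among the genes said to rise or fall here was 5.20e-05 by edgeR.

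TUG1 and OIP5-AS1 are lncRNAs found in both nucleus and cytoplasm. TUG1 is linked to Polycomb repression and, in mice, is needed for male fertility, and OIP5-AS1, also called Cyrano, is known for destroying the microRNA miR-7. TUG1 (chr22:30970677-30979395, plus strand) had 37.3, 38.4 and 34.1 CPM in siCtrl and 32.4, 36.1 and 26.7 CPM in siBAP18. The groups overlapped, with siBAP18 replicate 2 within the siCtrl range. The log2 fold change was −0.20 with an SE of 0.086 (adjusted p = 0.0541, edgeR). With the replicate number as a block the adjusted p was 0.00919, and without siBAP18 replicate 2 it was 0.00151.

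Entries inside TUG1 differed widely in their counts. TUG1_3, the segment with the most reads, had 432, 360 and 341 counts in siCtrl and 321, 438 and 231 counts in siBAP18, and its log2 fold change was −0.27 with an SE of 0.11 (adjusted p = 0.0489, edgeR). TUG1_1, TUG1_2 and TUG1_4 had 8 to 60 counts a library and did not pass. RP3-430N8.11 and RP3-430N8.10, on the opposite strand, were at −0.12 and 0.0047 and did not pass either. Of the flanking genes, MORC2, a silencing ATPase that starts 2379 bases from TUG1, rose by 0.25 with an SE of 0.069. SMTN, a smooth muscle protein, rose by 0.74 with an SE of 0.074. Among all genes 24.5% rose.

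OIP5-AS1 (chr15:41283990-41309737, plus strand, 12673 bases of exons) had 45.1, 43.9 and 40.5 CPM in siCtrl and 24.1, 28.3 and 23.8 CPM in siBAP18. No siBAP18 library reached the lowest siCtrl library. The level fell by 0.76 on the log2 scale with an SE of 0.078, to 0.589 of siCtrl (adjusted p = 1.00e-08, edgeR). It kept an adjusted p under 0.05 in each of the 11 other settings and without each library.

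The genes around OIP5-AS1 were lower too. CHP1, a calcium-binding partner of sodium-proton exchangers that ends 2100 bases before OIP5-AS1, had 68.2, 68.2 and 64.1 CPM in siCtrl and 40.4, 38.0 and 38.8 CPM in siBAP18. OIP5, a centromere protein gene that overlaps the 3′ end of OIP5-AS1 on the opposite strand, had 68, 75 and 73 counts in siCtrl and 37, 40 and 36 counts in siBAP18. NUSAP1, a mitotic spindle protein gene 22957 bases downstream, had 67.6, 63.2 and 59.9 CPM in siCtrl and 30.3, 32.7 and 27.5 CPM in siBAP18. In all 3 genes the groups were apart, and they fell by 0.78 ± 0.067, 0.99 ± 0.23 and 1.07 ± 0.075 (SE) on the log2 scale. Adjusted p ranged from 1.35e-11 to 9.95e-04 by edgeR. Among all genes 25.1% fell, and the groups did not overlap for 56.6%. A part of the position on the chromosome was not tested. Because OIP5 and OIP5-AS1 overlap, reads of the shared bases may have been counted for either.

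H19 is an imprinted RNA, expressed from the maternal copy, that carries miR-675, and IGF2 beside it is expressed from the paternal copy. H19 (chr11:1995163-2001470, minus strand) had 188, 147 and 234 counts in siCtrl and 204, 178 and 170 counts in siBAP18, or 3.16 to 5.01 CPM and 3.05 to 4.19 CPM. The ranges overlapped almost fully, and the log2 fold change was −0.098 with an SE of 0.16 (adjusted p = 0.643, edgeR). Its sign turned without siCtrl replicate 3 (0.12) and without siBAP18 replicate 2 (0.024). IGF2, a growth factor gene listed 127642 bases from H19, had 4235, 3588 and 2934 counts in siCtrl and 5931, 5673 and 5271 counts in siBAP18, without overlap, and rose by 0.61 with an SE of 0.092. CDKN1C, an imprinted cell cycle inhibitor of the same region, had 28 to 48 counts in siCtrl and 24 to 40 counts in siBAP18, with no separation (adjusted p = 0.605, edgeR). MRPL23-AS1, listed 5243 bases to the other side of H19, had 7 to 25 counts a library and did not pass. The short entries H19_1 and H19_2 are listed at several places and were not read as H19.

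UCA1, a lncRNA known from bladder cancer, was at the edge of detection. It had 5, 2 and 2 counts in siCtrl and 0, 0 and 2 counts in siBAP18. These sum to 9 and 2 counts, with exact Poisson 95% intervals of 4.12 to 17.1 and 0.242 to 7.22, which cover counting error only. A count of 0, as in siBAP18 replicates 1 and 2, allows up to 3 counts, or 0.0556 and 0.0531 CPM by their library totals. UCA1 failed the filter on low counts and was not tested, and a difference was not detectable at this depth, since the ratio of siBAP18 to siCtrl was 0.214 with an exact interval of 0.0225 to 1.03. CYP4F12 and CYP4F2, fatty acid hydroxylase genes on either side of UCA1 (chr19:15828961-15836320, plus strand), fell by 1.47 ± 0.14 and 1.36 ± 0.49 (SE). Among all genes 25.1% fell.

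**Figure D4:**
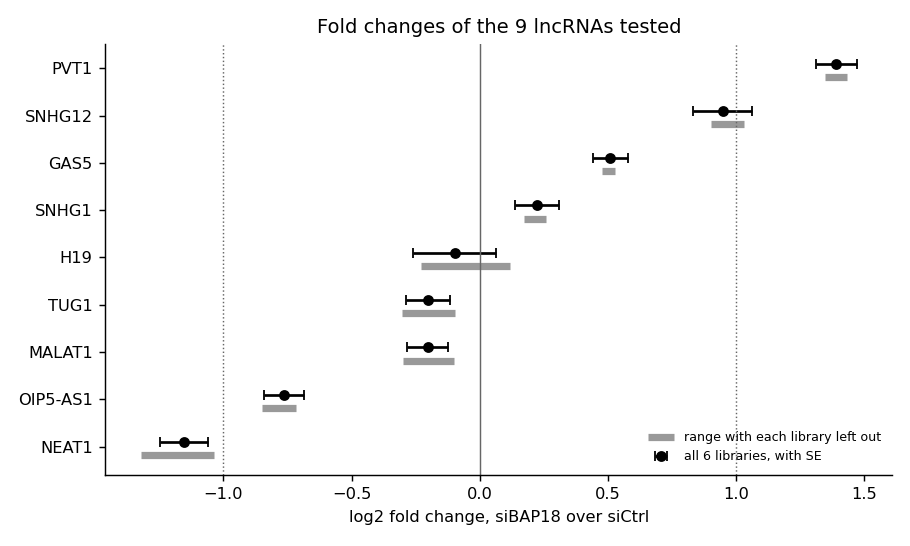
Log2 fold change, siBAP18 over siCtrl, for the 9 lncRNAs tested, with SE (black bars) and the range of values when each of the 6 libraries was left out in turn (grey). PVT1 (1.39) and NEAT1 (−1.15) lie beyond the dotted lines at 1 and −1, SNHG12 touches the upper line, and the grey range of H19 crosses 0.

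Per gene length, the 10 RNAs differed by orders of magnitude, and only some were abundant. In siCtrl, MALAT1 was at 105 ± 4.65 RPKM (SD, n = 3), which 1.32% of the listed genes exceeded, and NEAT1 at 36.0 ± 2.07 RPKM, exceeded by 3.70%. GAS5 followed at 9.88 ± 0.287, TUG1 at 5.38 ± 0.363, OIP5-AS1 at 3.40 ± 0.200, SNHG1 at 3.19 ± 0.229 and PVT1 at 2.03 ± 0.0722 RPKM. H19 at 1.38 ± 0.336 and SNHG12 at 1.19 ± 0.0385 RPKM lay under the median of 2.10 RPKM over all genes tested, and UCA1 was at 0.0260 ± 0.0126 RPKM. PVT1 lay just under that median as well, so the name abundant fits MALAT1 and NEAT1 and not UCA1. In this order the ranges of neighbors overlapped only for OIP5-AS1 with SNHG1 and for H19 with SNHG12.

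Knockdown changed the order of the levels. In siBAP18, MALAT1 stayed at the top at 91.5 ± 15.8 RPKM (SD, n = 3). NEAT1 at 16.3 ± 3.74 RPKM ranged from 13.0 to 20.3 RPKM, which enclosed the range of GAS5 at 14.1 ± 0.382 RPKM. PVT1 moved from 7th to 4th place at 5.34 ± 0.316 RPKM, within the range of TUG1 at 4.69 ± 0.851 RPKM. SNHG12 at 2.31 ± 0.169 RPKM passed OIP5-AS1 at 2.01 ± 0.263 RPKM, with overlapping ranges. SNHG1 at 3.73 ± 0.315 RPKM overlapped TUG1, and H19 at 1.29 ± 0.162 RPKM lay apart from its neighbors. The 10 RNAs together took 0.181% to 0.193% of all counts in siCtrl and 0.110% to 0.157% in siBAP18. MALAT1 and NEAT1 made up 91.7% to 92.6% of that in siCtrl and 86.3% to 89.0% in siBAP18. RPKM uses the summed length of all listed exons, which lowers the value of genes with many alternative exons. NEAT1 was divided by all 22767 bases. Counts per base in 3 segments within its first 1345 bases were 7.51 to 8.67 times the gene's mean. The short length of the segments can itself raise this ratio. A shorter length would raise its RPKM in both groups, and its place relative to MALAT1 and GAS5 under such a length was not tested.

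**Figure D5:**
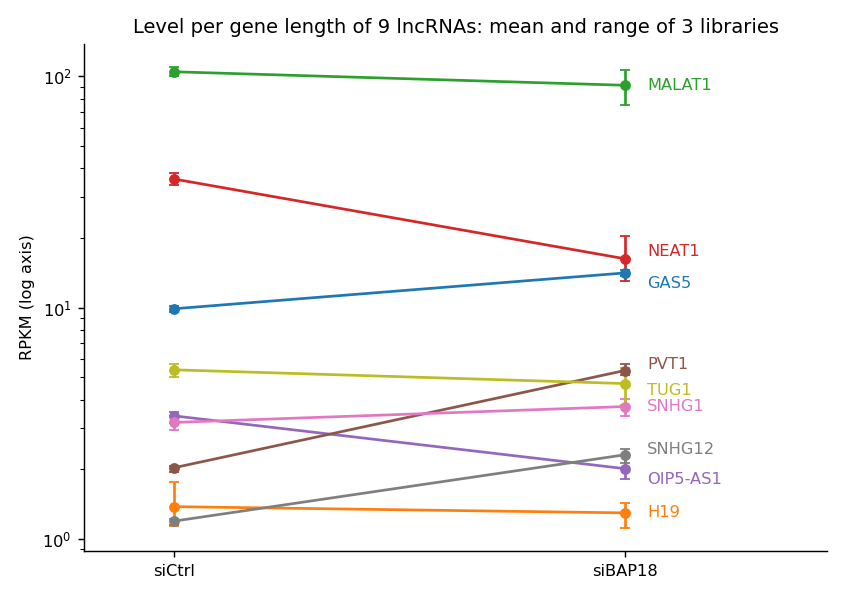
Mean RPKM of 3 libraries with the lowest and highest library (bars), on a log axis, for 9 lncRNAs in siCtrl and siBAP18, with UCA1 left out because it was at 0 in 2 libraries. PVT1 climbs from 2.03 to 5.34 RPKM past OIP5-AS1, SNHG1 and TUG1, and NEAT1 drops from 36.0 to 16.3 RPKM toward GAS5.

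The promoters of 7 of the 10 RNAs were read from RefSeq (GRCh38.p14) as 8 windows of 300 bases, from 250 before the start to 50 after it, with 2 windows for MALAT1. NEAT1, PVT1 and UCA1 had no entry. The letters searched on both strands were CACGTG (the E-box that MYC can bind), TGANTCA (AP-1), TGACGTCA (CREB), GCGNGGGCG (EGR1), CTTTGA (the core read by TCF and LEF, partners of β-catenin) and TGATGNAA (ATF4). CACGTG was found in the windows of OIP5-AS1 and TUG1 (7.26% of all 35116 windows) and GCGNGGGCG in those of OIP5-AS1, TUG1 and MALAT1 (9.43% of all). The other letters had no match in the 8 windows, against 7.71% of all windows for TGANTCA, 1.85% for TGACGTCA, 12.9% for CTTTGA and 3.62% for TGATGNAA. A TOP tract was found at the RefSeq starts of SNHG12 and MALAT1 (11.1% of all windows). A match describes letters only, and no match says nothing of the factor. The windows of SNHG12 (chr1:28581824-28582123, minus strand), which rose, and OIP5-AS1 (chr15:41283740-41284039, plus strand), which fell, are given with the matches in capitals.
SNHG12 window: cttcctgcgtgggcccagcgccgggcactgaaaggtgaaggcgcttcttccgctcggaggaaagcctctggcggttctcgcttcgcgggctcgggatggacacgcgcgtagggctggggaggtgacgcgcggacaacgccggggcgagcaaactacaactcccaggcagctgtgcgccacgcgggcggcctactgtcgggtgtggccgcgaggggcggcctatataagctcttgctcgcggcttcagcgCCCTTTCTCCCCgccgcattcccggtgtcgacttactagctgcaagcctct
OIP5-AS1 window: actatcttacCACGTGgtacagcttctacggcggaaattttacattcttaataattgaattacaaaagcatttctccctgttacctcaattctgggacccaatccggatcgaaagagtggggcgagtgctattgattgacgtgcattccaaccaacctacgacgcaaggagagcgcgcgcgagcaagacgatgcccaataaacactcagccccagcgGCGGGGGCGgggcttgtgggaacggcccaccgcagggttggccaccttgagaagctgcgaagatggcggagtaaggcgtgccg

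Other long noncoding RNAs also moved in both directions. Of 32 further studied lncRNAs tested, 8 rose, 7 fell and 17 did not pass, with a median of −0.064. Among all genes 24.5% rose and 25.1% fell, and of 3781 lncRNA genes tested 763 rose and 584 fell. THRIL had 8.01, 9.40 and 7.55 CPM in siCtrl and 2.92, 2.71 and 2.20 CPM in siBAP18 and fell by 1.66 with an SE of 0.13, further than NEAT1 on the log2 scale. RN7SK, the scaffold that holds the elongation factor P-TEFb inactive, LINC00963 and LINC00511 rose by 0.75 ± 0.12, 0.46 ± 0.075 and 0.51 ± 0.087 (SE). Of 14 lncRNAs listed as induced by p53, 4 were tested, and 3 rose and 1 fell. TP53TG1 rose by 0.85 ± 0.11 and LINC-PINT by 0.29 ± 0.098 (SE), and LINC01021 fell by 0.35 ± 0.081 (SE). LINC00475 rose from 5, 6 and 2 counts in siCtrl to 67, 47 and 30 counts in siBAP18.

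Genes whose pattern over the 6 libraries was closest to PVT1 and NEAT1 were sought among the 9929 genes whose mean log2 CPM was 3 or more, by the Euclidean distance of centred log2 CPM. For PVT1 they were RELB, a subunit of NF-κB, at a distance of 0.088, GDF15, a secreted stress cytokine, at 0.11, and UPP1, a uridine phosphorylase, at 0.12. RELB had 13.0, 12.5 and 13.0 CPM in siCtrl and 35.6, 32.5 and 35.4 CPM in siBAP18, with the lowest knockdown value in replicate 2 as for PVT1. For NEAT1 they were TOPBP1, a DNA replication and checkpoint protein, at 0.12, MELK, a mitotic kinase, at 0.14, and EIF2AK2, the kinase PKR that senses double-stranded RNA, at 0.14. EIF2AK2 had 55.2, 58.8 and 56.2 CPM in siCtrl and 25.5, 29.2 and 22.2 CPM in siBAP18, in the order of NEAT1 among the knockdown libraries. The distance rests on 6 libraries in 2 groups and is a description.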

How the data were processed

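The authors deposited raw read counts per gene and RPKM values for 6 libraries made, per the labels, from poly(A)-selected RNA with 150-base paired ends. The deposited RPKM equal the count per kilobase of listed length, scaled to the column total. The coordinates are those of GRCh38. The aligner, counting program and use of strand are not given in the sources used here. Counts were filtered with filterByExpr, scaled by TMM and compared with edgeR 4.0.16 in R 4.3.3 (quasi-likelihood test, Benjamini-Hochberg adjustment over 20776 genes). The SE is the log2 fold change over the square root of F. A gene was called at adjusted p under 0.05 and absolute log2 fold change over 1. Gene lists were compiled by hand and counted at adjusted p under 0.05, without a set test, and symbols absent from the table were looked up under older symbols. Members and lists were chosen with earlier results of these data known.

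Named genes were the 10 lncRNAs, C17orf49, genes overlapping or flanking the 10 (entries listed at distant places were left out as flanking genes, and some flanking genes are not reported here), MYC, IGF2 and CDKN1C, the 4 genes of smallest adjusted p in each list and the 3 genes closest in pattern to the 2 lncRNAs of largest change. SNHG4, SNHG14, DLEU2, UPF1, SFPQ, NONO and PSPC1 were named in addition, after their values were seen, as were cell markers. Lists and lncRNAs were read against GENCODE 29, to which 34994 of the 35474 genes were matched. In simulated data, 200 of 20776 genes were changed by more than 1 on the log2 scale. Of these, 199 had an adjusted p under 0.05 by edgeR with the right sign. Among the other genes 9 had an adjusted p under 0.05 and 3 were called. Changes as small as those of MALAT1, SNHG1 and TUG1, and a larger share of changed genes, were not simulated. Replicate numbers did not pair the libraries (correlations −0.017, 0.051 and 0.0038), and no 2 libraries were copies (chi-square per degree of freedom 3.94 to 23.3). Alternatives used DESeq2 1.42.0 and limma 3.58.1. Python 3.11.15 read the sequences.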

Additional observations from a re-analysis of the deposited data

How the results depend on the processing

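NEAT1, PVT1, GAS5, SNHG12 and OIP5-AS1 kept their direction and an adjusted p under 0.05 in 11 other settings and without each of the 6 libraries. Without each library in turn, log2 fold changes were −1.32 to −1.04 for NEAT1, 1.35 to 1.43 for PVT1, 0.48 to 0.53 for GAS5, 0.90 to 1.03 for SNHG12 and −0.85 to −0.72 for OIP5-AS1. MALAT1 ranged from −0.30 to −0.10, SNHG1 from 0.17 to 0.26, TUG1 from −0.30 to −0.095 and H19 from −0.23 to 0.12, turning sign without siCtrl replicate 3 (0.12) and without siBAP18 replicate 2 (0.024). The number of lncRNAs called was 2 to 3 in these fits.

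MALAT1 lost its adjusted p under 0.05 with DESeq2 size factors (−0.20), upper-quartile scaling (−0.19), total counts (−0.19), the DESeq2 Wald test (−0.20) and limma on log2(RPKM + 1) (−0.21, with or without a filter) or log2(RPKM + 0.1) (−0.21). SNHG1 lost it with no filter (0.21) and with limma on log2(RPKM + 1) (0.18, with or without a filter) or log2(RPKM + 0.1) (0.22). TUG1 gained it with the likelihood ratio test (−0.20), no filter (−0.22) and the replicate block (−0.21). The causes were not tested. UCA1 was read only from the edgeR fit with no filter on counts (−1.94, adjusted p = 0.459 by the quasi-likelihood test).

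By adjusted p alone 10305 genes and 7 of the lncRNAs were called, against 1758 and 2. Limma on log2(RPKM + 1), log2(RPKM + 0.1) and log2(RPKM + 1) without a filter called 348, 909 and 345 genes. Listed companion genes numbered 50 higher and 43 lower by adjusted p, 1 and 3 with the fold change in addition, and 25 lower with limma without a filter. With the replicate number as a block, 1741 genes and 2 lncRNAs were called, and the adjusted p of TUG1 (0.00919, edgeR) was the only one among the 9 lncRNAs to cross 0.05. The order of levels was the same in CPM per kilobase, which divides by the same listed lengths. That order could hardly have changed, so the choice of length was not tested.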
